A study of Mus musculus with 112 samples.

Results

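Genes of fatty acid uptake and binding were followed in epididymal fat, gastrocnemius muscle and liver of mice that differed in diet and in Pparg genotype. The genes were chosen by name: Lpl, Gpihbp1 and Vldlr, which act on lipoproteins at the vessel wall; Cd36, Slc27a1, Slc27a2 and Slc27a4, which act in fatty acid uptake; and the binding proteins Fabp3, Fabp4 and Fabp5. Of these 10 genes 8, among 16643 named genes on the array, had probe sets paired with their symbol, 15 of the 32640 probe sets in all. Cd36, Lpl and Vldlr had 3 each, Slc27a1 had 2, and Gpihbp1, Fabp4, Slc27a2 and Slc27a4 had 1 each. Fabp3 and Fabp5 were not analysed here. Each gene with several probe sets is described by the one with the highest variance within groups, the same in every tissue, and values of the others stand beside the main results.

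RNA of male mice was measured on 112 arrays. The mice were homozygous for the Pro12Ala knock-in of Pparγ (Ala/Ala) or were their wild-type littermates (Pro/Pro), and from the age of 8 weeks were fed either chow or a diet rich in fat (HFD). Fat came from 10 Pro/Pro mice on chow, 10 Pro/Pro on HFD, 9 Ala/Ala on chow and 8 Ala/Ala on HFD; muscle from 8, 8, 10 and 9 in the same order; and liver from 10 in each group. The length of the diet is stated as 15 weeks for the series but as 12 weeks for single samples, and the stated feeds differ too. The knock-in is carried by all cells, the strain background is not given in the sources used here, and heterozygous mice were not analysed here.

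Fatty acids reach fat and muscle cells from lipoproteins and from albumin in plasma. Lipoprotein lipase (Lpl) splits the triglyceride of circulating lipoproteins on the capillary surface, where Gpihbp1, an anchor made by endothelial cells, holds it; Vldlr, the very low density lipoprotein receptor, binds the same particles. Cd36 and the fatty acid transport proteins Slc27a1, Slc27a2 and Slc27a4 take up free fatty acids, and the transport proteins also help to activate them. Slc27a2 is typical of liver and kidney. Fatty acid binding proteins carry fatty acids inside the cell, Fabp4 in adipocytes and some endothelial cells. Several of these genes, Lpl, Cd36 and Fabp4 among them, are textbook targets of PPARγ, which binds DNA with RXR at a direct repeat of a short half-site.

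The promoters of the 4 genes that rose with HFD in fat or muscle follow, from 250 bases before to 50 bases after the start of transcription in RefSeq (build GRCm38.p6), because that half-site could be looked for there. Capitals mark the half-site AGGTCA or its reverse complement TGACCT. Cd36 lies on the minus strand at chr5:17835847-17836146, Slc27a1 (the first of its 3 listed starts) on the plus strand at chr8:71568621-71568920, Vldlr (the first of 2) on the plus strand at chr19:27216234-27216533 and Slc27a4 on the plus strand at chr2:29802384-29802683.
Cd36: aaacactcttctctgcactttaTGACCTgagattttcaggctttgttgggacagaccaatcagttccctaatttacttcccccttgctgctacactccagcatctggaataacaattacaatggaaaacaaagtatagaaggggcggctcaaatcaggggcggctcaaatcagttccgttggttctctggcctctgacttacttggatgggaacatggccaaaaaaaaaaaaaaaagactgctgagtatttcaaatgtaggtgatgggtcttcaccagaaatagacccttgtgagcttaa
Slc27a1: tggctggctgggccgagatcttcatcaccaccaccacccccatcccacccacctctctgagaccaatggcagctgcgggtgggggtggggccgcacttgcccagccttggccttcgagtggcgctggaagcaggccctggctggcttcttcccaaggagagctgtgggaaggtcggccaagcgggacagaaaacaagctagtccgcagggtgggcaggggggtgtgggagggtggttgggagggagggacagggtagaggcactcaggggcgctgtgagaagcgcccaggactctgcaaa
Vldlr: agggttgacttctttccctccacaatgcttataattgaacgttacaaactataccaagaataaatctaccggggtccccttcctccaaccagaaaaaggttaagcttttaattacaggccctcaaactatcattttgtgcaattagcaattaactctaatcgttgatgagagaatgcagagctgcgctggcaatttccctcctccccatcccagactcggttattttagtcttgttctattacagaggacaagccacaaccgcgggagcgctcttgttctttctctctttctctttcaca
Slc27a4: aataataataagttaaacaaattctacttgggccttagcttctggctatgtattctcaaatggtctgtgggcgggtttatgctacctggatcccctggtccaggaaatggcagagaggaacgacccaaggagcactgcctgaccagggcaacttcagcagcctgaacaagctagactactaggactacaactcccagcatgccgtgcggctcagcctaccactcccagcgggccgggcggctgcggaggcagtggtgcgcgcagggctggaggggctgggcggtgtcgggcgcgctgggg
The table held promoters of 5 of the 8 measured genes, 8 promoters in all. The half-site occurred in 2 of them, beginning at base -228 from the start in Cd36 and at base -220 in Slc27a2, against 16.3% of 32851 promoters of that length. The direct repeat, this half-site written again after 1 base of any kind, occurred in 0 of the 8 and in 0.0396% of all promoters. Both strands were searched, and these matches describe letters only.

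Every value sets 1 mouse, as a log2 ratio, against the virtual pool of Pro/Pro mice on HFD in its tissue. A value of 0 is the level of that pool. Where it could be checked the pool was a mean of unlogged ratios, so a few high arrays can raise it above most mice of that group. Ratios hold no absolute level, and levels are compared neither between genes nor between tissues. The labelled tissue could not be checked by marker levels for the same reason, and signal over background is unknown. The number of arrays limits the precision. In fat and liver the pool arithmetic held for 100% of probe sets (within 0.001 on the log10 scale); for muscle only 8 of 10 arrays behind the pool are among those used, so the direction there rests on the labels. On 10 fat arrays the mean ratio of genes typical of liver, or of epididymis and testis, was above a cut chosen here. Some of the 10 were still below the pool on both means, such as Mouse128 (-3.22 and -0.84). The arrays kept reached -0.9 (Mouse74) and -1.63 (Mouse110) in the same order. Diet differences in fat are also given without the 10 arrays. Most of the 10 were HFD arrays: without them 9 chow and 5 HFD arrays of Pro/Pro and 8 chow and 5 HFD arrays of Ala/Ala were left. In tissue RNA, fewer cells of a type and less RNA per cell cannot be told apart. Differences are given as log2 with the standard error of limma's fit, and a difference passed when its limma p, adjusted over all 32640 probe sets, was under 0.05.

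In epididymal fat HFD was accompanied by higher Vldlr and Slc27a4 and slightly lower Lpl in Pro/Pro mice. In Ala/Ala mice Vldlr rose by a similar margin, while the differences of Slc27a4 and Lpl had the same sign, were smaller and did not pass. Cd36, Fabp4, Gpihbp1, Slc27a1 and Slc27a2 did not pass in either genotype. In Pro/Pro 3 of 8 genes passed, 2 higher and 1 lower, against 22.5% of all probe sets (9.36% higher and 13.1% lower). In Ala/Ala 1 of 8 passed, higher, against 26.9% (12.3% higher and 14.6% lower). These shares of genes are near those of the whole array.

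Lpl moved within a narrow range. It lay between 0.06 and 0.25 (median 0.14) in Pro/Pro mice on chow and between -0.08 and 0.10 (median 0.00) on HFD, and between 0.01 and 0.24 (median 0.17) in Ala/Ala mice on chow and between -0.05 and 0.20 (median 0.06) on HFD. In Pro/Pro 8 of 10 HFD arrays were below every chow array; in Ala/Ala 3 of 8 were. The fall was 0.14 on the log2 scale in Pro/Pro (-0.14 ± 0.04, 0.909-fold, limma adjusted p = 0.00602), and the difference in Ala/Ala was -0.07 ± 0.04 (limma adjusted p = 0.176). The change of 1 other Lpl probe set was -0.13 ± 0.03 in Pro/Pro and passed (limma adjusted p = 0.00682), and that of the third was -0.04 ± 0.03 and did not (0.347). Gpihbp1, the endothelial anchor of the lipase, differed by 0.06 ± 0.07 and 0.13 ± 0.08 in the same order (95% intervals -0.08 to 0.21 and -0.03 to 0.29).

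Vldlr, the lipoprotein receptor, separated the diets in both genotypes. It ran from -0.58 to 0.15 (median -0.39) in Pro/Pro on chow and from -0.32 to 0.24 (median 0.02) on HFD, and from -0.61 to -0.05 (median -0.34) in Ala/Ala on chow and from -0.30 to 0.31 (median -0.02) on HFD. Every HFD array was above the median of the chow arrays of its genotype, 10 of 10 in Pro/Pro and 8 of 8 in Ala/Ala, although the groups overlapped. The rise was 0.35 ± 0.09 in Pro/Pro (1.28-fold, limma adjusted p = 0.00331) and 0.34 ± 0.10 in Ala/Ala (1.27-fold, limma adjusted p = 0.00776). The other 2 Vldlr probe sets rose by 0.31 and 0.44 in Pro/Pro. In Ala/Ala, in the same order, they differed by 0.25 (limma adjusted p = 0.0522) and 0.36 (0.0246). With the 10 arrays above the cut for liver or for epididymis and testis genes left out, Vldlr differed by 0.37 ± 0.12 in Pro/Pro (limma adjusted p = 0.0291). In Ala/Ala it then differed by 0.30 ± 0.12 (0.0972). Lpl without them differed by -0.15 ± 0.05 and -0.07 ± 0.05 (0.0202 and 0.344).

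Slc27a4, a fatty acid transport protein with acyl-CoA synthetase activity, ran from -0.44 to -0.10 (median -0.27) in Pro/Pro mice on chow and from -0.26 to 0.40 (median -0.03) on HFD. In Ala/Ala it ran from -0.55 to -0.07 (median -0.22) on chow and from -0.29 to 0.38 (median -0.13) on HFD. The 10 HFD arrays of Pro/Pro were all above the chow median and 6 of them above every chow array; in Ala/Ala 6 of 8 were above the median. The rise in Pro/Pro was 0.26 ± 0.07 (1.20-fold, limma adjusted p = 0.00925), and the difference in Ala/Ala was 0.15 ± 0.08 (limma adjusted p = 0.163). The Ala/Ala difference was 0.09 without Mouse99 (limma adjusted p = 0.422) and 0.06 ± 0.08 without the 10 arrays (0.661), while that of Pro/Pro without them was 0.35 ± 0.08 (0.00231). Over both genotypes Vldlr (0.35 ± 0.07), Slc27a4 (0.21 ± 0.06) and Lpl (-0.11 ± 0.03) passed, 2 higher and 1 lower, or 3 of 8 genes against 38.7% of probe sets (18.4% higher and 20.3% lower; limma adjusted p = 5.59e-05, 0.00284 and 0.00228). No test of a difference between the genotypes in these diet effects passed: the interaction was -0.01 ± 0.13 for Vldlr, -0.11 ± 0.11 for Slc27a4 and 0.06 ± 0.06 for Lpl.

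**Figure D1:**
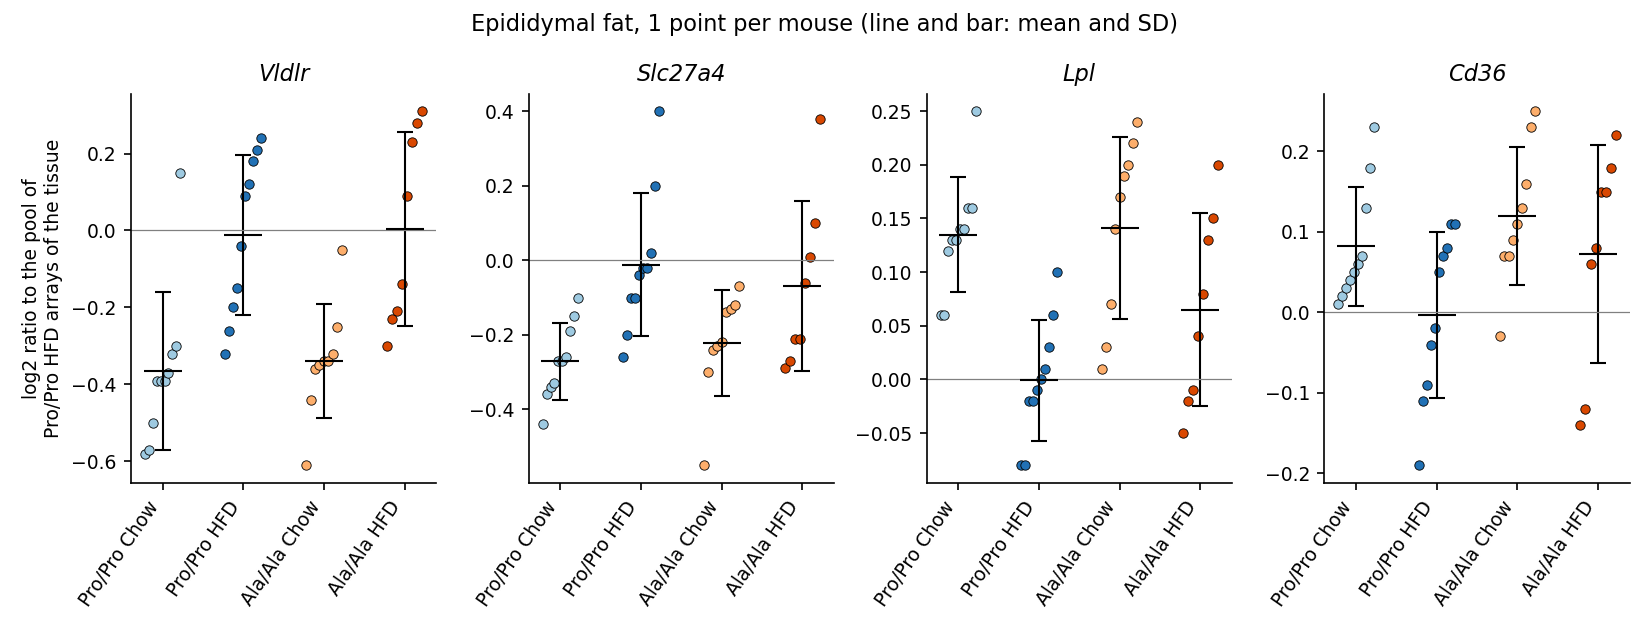
Log2 ratio to the pool (vertical axis) of Vldlr, Slc27a4, Lpl and Cd36 in epididymal fat, 1 point per mouse in the 4 groups; the line and bar are the mean and SD. Vldlr and Slc27a4 lay higher and Lpl lower on HFD, with overlapping groups, while Cd36 stayed between -0.19 and 0.25 on all 37 arrays.

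Cd36, the scavenger receptor that binds long-chain fatty acids, was by its reported probe set among the steadiest transcripts in fat. It lay between 0.01 and 0.23 in Pro/Pro on chow, -0.19 and 0.11 in Pro/Pro on HFD, -0.03 and 0.25 in Ala/Ala on chow and -0.14 and 0.22 in Ala/Ala on HFD. Its SD within groups, 0.10, was at percentile 6.0 of all probe sets, and that of Lpl, 0.07, at percentile 0.7. The SDs of single groups ran from 0.05 to 0.07 for 1 other Cd36 probe set and from 0.06 to 0.15 for the third. The diet difference of Cd36 was -0.09 ± 0.05 in Pro/Pro and -0.05 ± 0.05 in Ala/Ala, with 95% intervals of -0.18 to 0.01 and -0.15 to 0.06. Fabp4, the adipocyte binding protein, differed by 0.04 ± 0.07 and -0.05 ± 0.08 (95% intervals -0.11 to 0.19 and -0.21 to 0.11). Slc27a1, an insulin-responsive transport protein, spread more widely, from -0.92 to 0.75, and differed by -0.03 ± 0.16 and -0.04 ± 0.18. Without the 10 arrays the differences were -0.12 ± 0.06 and -0.04 ± 0.06 for Cd36, 0.05 ± 0.10 and -0.09 ± 0.10 for Fabp4, 0.16 ± 0.08 and 0.13 ± 0.09 for Gpihbp1, and 0.16 ± 0.20 and -0.16 ± 0.21 for Slc27a1, and none of them passed in limma.

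The adipocyte list without the uptake genes (6 of its 7 genes measured) had a higher mean on HFD, while the median difference of its genes was 0.04 in Pro/Pro and 0.01 in Ala/Ala. Its mean ratio ran from -0.41 to -0.15 in Pro/Pro on chow and from -0.06 to 0.06 on HFD, and from -0.38 to -0.07 in Ala/Ala on chow and from -0.07 to 0.03 on HFD. In both genotypes 1 member passed as higher and 2 as lower: the leptin gene Lep rose by 1.69 ± 0.20 and 1.45 ± 0.22, the adipokine Cfd fell by 0.39 and 0.44 on the log2 scale, and Adipoq by 0.10 and 0.14. Of 7 macrophage genes Itgax rose in both genotypes (0.75 and 1.10), and Csf1r and Cd163 fell in Pro/Pro. The mean of the 8 endothelial genes overlapped between diets (-0.30 to 0.30 on chow against -0.22 to 0.18 on HFD in Pro/Pro), although its member Tek, an angiopoietin receptor, fell in both genotypes (-0.40 and -0.35) and Tie1 in Ala/Ala (-1.02). Over both genotypes 2 endothelial genes rose, the junction genes Cldn5 (0.27) and Cdh5 (0.13), and Tek fell (-0.37). The brown adipocyte list (7 genes) was higher on HFD, with means of -1.08 to -0.33 on chow and -0.68 to 0.37 on HFD in Pro/Pro, and -1.20 to -0.18 and -0.41 to 1.59 in Ala/Ala. Of its genes 3 (Pro/Pro) and 4 (Ala/Ala) rose, among them Cox7a1, a subunit of the respiratory chain (1.21 and 1.29). The mesothelium list was lower on HFD, with 4 of its 6 genes falling in each genotype, Wt1 by 0.82 and 0.80 on the log2 scale. Its means ran from -0.15 to 1.0 on chow and -0.39 to 0.55 on HFD in Pro/Pro, and from -0.27 to 0.61 and -0.85 to 0.26 in Ala/Ala. Of 10 epididymis and testis genes Prm1 (1.27) and Tnp1 (0.78) rose in Pro/Pro. The part of these cell types in the changes of Vldlr, Slc27a4 and Lpl was not tested.

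Slc27a2, the very long-chain transport protein of liver, was the most variable of the genes in fat. It ran from -3.49 to 0.50 (median -0.51) in Pro/Pro on chow, from -2.89 to 1.42 (median -0.06) in Pro/Pro on HFD, from -3.86 to 2.35 (median -2.96) in Ala/Ala on chow and from -3.49 to 1.69 (median -0.78) in Ala/Ala on HFD. All 4 groups overlapped, and the differences with HFD, 0.69 ± 0.70 and 0.84 ± 0.76, did not pass. The hepatocyte list (7 of 9 genes measured) ran over a similar range, from -3.86 to 2.84, and its mean correlated with Slc27a2 at r = 0.579 over 37 arrays after group means were subtracted. The 3 fat arrays with the highest Slc27a2 (1.42, 1.69 and 2.35) had hepatocyte list means of 2.68, 2.53 and 2.84, but the array of Mouse89, at 0.50, had one of -3.67. Without the 10 arrays the differences were 0.41 ± 0.78 and 0.58 ± 0.80. In muscle Slc27a2 ran from -3.04 to -0.43, and 0 was not the level of the Pro/Pro HFD group there (-2.80 to -0.43, median -1.90). It followed the same list at r = 0.933 over 35 arrays. In these correlations all points share the pool of their tissue.

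**Figure D2:**
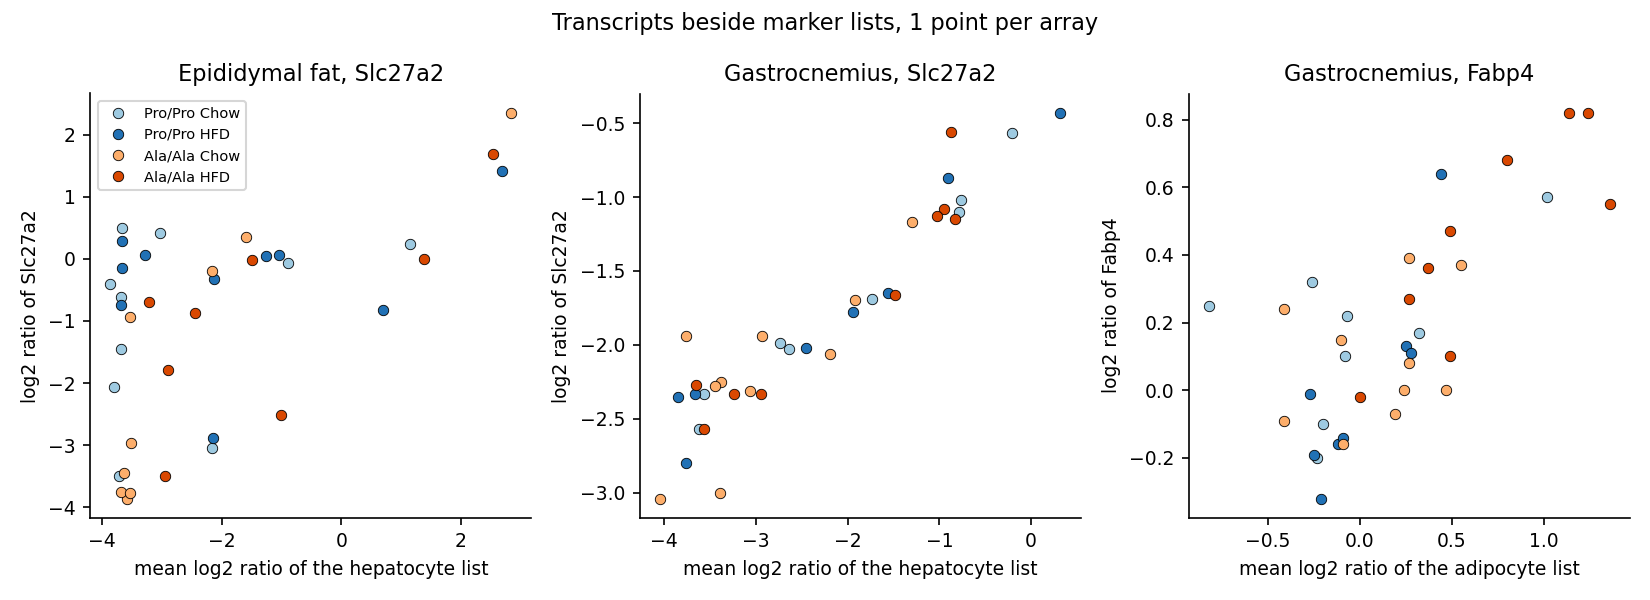
Slc27a2 beside the mean of the hepatocyte list in fat and in muscle, and Fabp4 beside the mean of the adipocyte list in muscle; both axes are log2 ratios, 1 point per array, coloured by group. In muscle Slc27a2 rose along the list, and Fabp4 was highest (0.82) in 2 Ala/Ala HFD arrays with adipocyte list means above 1.

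In gastrocnemius Cd36 and Slc27a1 rose in Ala/Ala mice, and Slc27a1 rose in Pro/Pro mice, where Cd36 was higher by a smaller margin that did not pass. In Ala/Ala 2 of 8 genes passed, both higher, against 1.95% of all probe sets (1.02% higher and 0.938% lower). In Pro/Pro 1 of 8 passed, higher, against 0.956% (0.414% higher and 0.542% lower). Over both genotypes 3 of 8 passed, all higher, against 5.37% (2.05% higher and 3.31% lower): Cd36 (0.34 ± 0.05), Slc27a1 (0.34 ± 0.04) and Slc27a4 (0.13 ± 0.04).

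Cd36 in muscle lay between -0.49 and -0.11 (median -0.23) in Ala/Ala mice on chow and between -0.07 and 0.37 (median 0.26) on HFD. The groups did not overlap: all 9 HFD arrays were above all 10 chow arrays. The share of all probe sets without overlap between these groups was not counted, so how unusual this is cannot be told. The same limit holds for Slc27a1 below. In Pro/Pro Cd36 lay between -0.48 and -0.08 (median -0.18) on chow and between -0.19 and 0.34 (median -0.02) on HFD, and 5 of 8 HFD arrays were above every chow array. The rise in Ala/Ala was 0.46 ± 0.07 (1.38-fold, limma adjusted p = 3.83e-05), and the difference in Pro/Pro was 0.23 ± 0.07 (limma adjusted p = 0.14). All 3 Cd36 probe sets rose in Ala/Ala, by 0.46, 0.50 and 0.45. The diet effect was larger in Ala/Ala by 0.24 ± 0.10, which did not pass (unadjusted p = 0.0239, limma adjusted p = 0.998).

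Slc27a1 in muscle lay between -0.52 and -0.20 (median -0.39) in Ala/Ala mice on chow and between -0.14 and 0.18 (median 0.00) on HFD, again without overlap. In Pro/Pro it lay between -0.51 and 0.00 (median -0.33) on chow and between -0.08 and 0.16 (median -0.02) on HFD, and 7 of 8 chow arrays were below every HFD array. The rise was 0.38 ± 0.05 in Ala/Ala (1.31-fold, limma adjusted p = 1.45e-05) and 0.30 ± 0.06 in Pro/Pro (1.23-fold, limma adjusted p = 0.00411). The other Slc27a1 probe set rose by 0.37 ± 0.06 in Ala/Ala and differed by 0.21 ± 0.07 in Pro/Pro, which did not pass (limma adjusted p = 0.149). With the adipocyte list mean as a covariate Cd36 rose by 0.42 ± 0.08 and Slc27a1 by 0.34 ± 0.06 in Ala/Ala (limma adjusted p = 0.00182 and 0.000962). That list includes Lep, which itself rose with HFD in Ala/Ala muscle (1.71). Adipocyte content and a response to diet therefore cannot be told apart in this fit.

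Slc27a4 in muscle differed by 0.15 ± 0.05 and 0.12 ± 0.05 (Pro/Pro, then Ala/Ala), and passed over both genotypes (0.13 ± 0.04, limma adjusted p = 0.0198). That call ended with the adipocyte list mean (0.10, limma adjusted p = 0.108) or, in an alternative added after seeing the data, the endothelial list mean (0.10, 0.0719) as a covariate. The differences of Lpl were 0.01 ± 0.07 (Pro/Pro) and 0.19 ± 0.06 (Ala/Ala; limma adjusted p = 0.962 and 0.0981); in Ala/Ala all 9 HFD arrays were above the chow median and 4 above every chow array. Averaging its 3 probe sets made the Ala/Ala difference of Lpl pass (0.19, limma adjusted p = 0.0315), as did leaving out Mouse120 (0.22, 0.0456). Vldlr differed by -0.02 ± 0.07 and 0.10 ± 0.06, and Gpihbp1 by -0.08 ± 0.09 and 0.15 ± 0.09.

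Fabp4 in muscle ran from -0.20 to 0.57 (median 0.19) in Pro/Pro on chow, from -0.32 to 0.64 (median -0.08) in Pro/Pro on HFD, from -0.16 to 0.39 (median 0.04) in Ala/Ala on chow and from -0.02 to 0.82 (median 0.47) in Ala/Ala on HFD. The Ala/Ala mice on HFD were the high group, and it overlapped with each of the others. The diet difference was 0.36 ± 0.11 in Ala/Ala (limma adjusted p = 0.0997) and -0.16 ± 0.12 in Pro/Pro (0.654). It passed in Ala/Ala without Mouse127 (0.42, limma adjusted p = 0.043) or with the mean of 6 slow fibre genes as a covariate, added after seeing the data (0.41, 0.0234); no slow fibre gene itself passed in muscle. The adipocyte list mean stood highest in the same group, between 0.00 and 1.36, against -0.41 to 0.55 in Ala/Ala on chow, -0.82 to 1.02 in Pro/Pro on chow and -0.27 to 0.44 in Pro/Pro on HFD, and correlated with Fabp4 at r = 0.62 over 35 arrays. With that mean as a covariate the Ala/Ala difference of Fabp4 was 0.13 ± 0.10. Of the 6 adipocyte genes measured, Lep rose in Ala/Ala (1.71 ± 0.27), and of 7 brown adipocyte genes Cidea, a lipid droplet gene, did (0.99). Of 6 dissection and handling genes the stress gene Atf3 rose in Ala/Ala (1.15 ± 0.25, limma adjusted p = 0.00732) and over both genotypes (0.89), where Junb fell (-0.21). The mean of that list overlapped between diets, from -0.45 to 0.28 on chow and -0.32 to 0.22 on HFD in Ala/Ala, and from -0.53 to 0.13 and -0.64 to 0.38 in Pro/Pro. Apart from the fits with list means as covariates, the part of these genes in the changes of Cd36 and Slc27a1 was not tested.

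**Figure D3:**
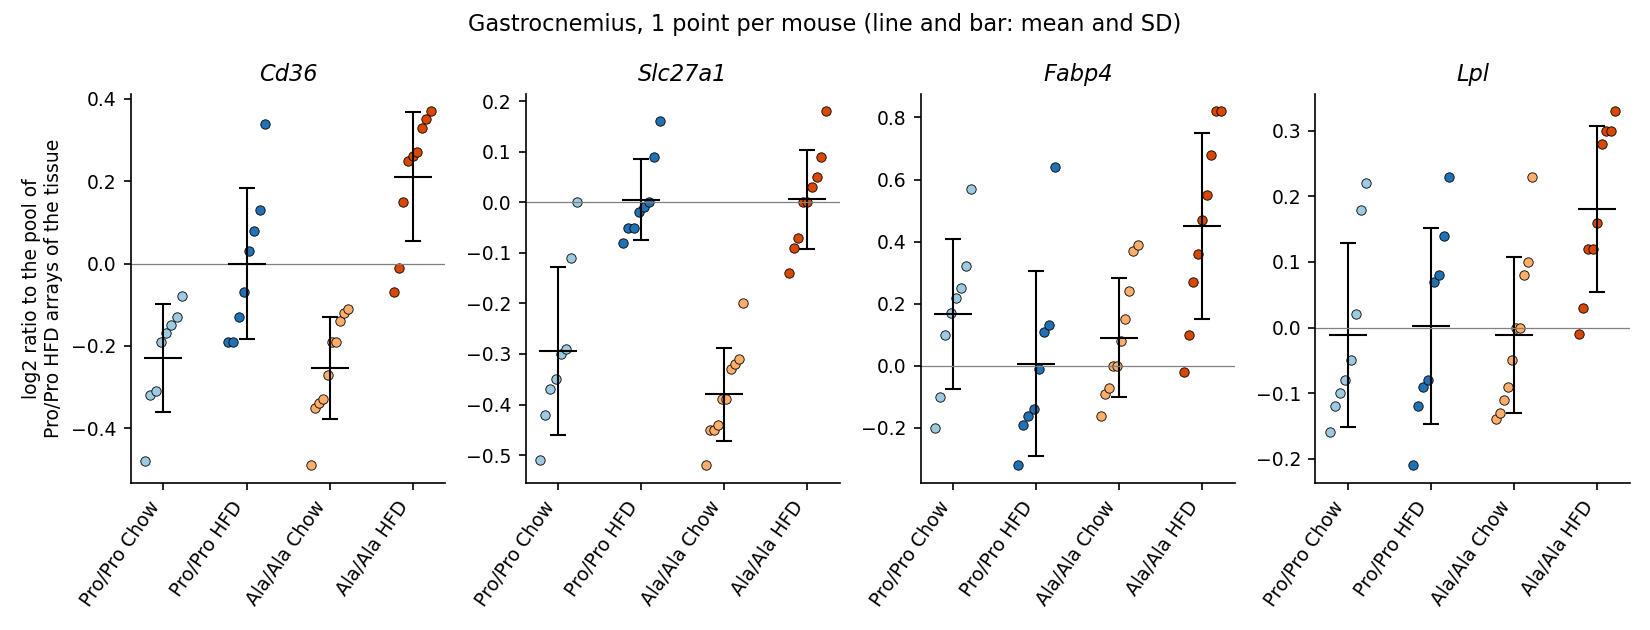
Log2 ratio to the pool (vertical axis) of Cd36, Slc27a1, Fabp4 and Lpl in gastrocnemius, 1 point per mouse in the 4 groups; the line and bar are the mean and SD. For Cd36 and Slc27a1 the Ala/Ala HFD arrays all lie above the Ala/Ala chow arrays, while Fabp4 ran up to 0.82 in Ala/Ala on HFD and overlapped with the other groups.

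Comparing genotypes asked whether the variant changed these genes. No gene of the 8 passed between Ala/Ala and Pro/Pro in any tissue on either diet, or over both diets. In limma 0 of 8 passed in fat on chow, on HFD and over both diets, against 0.0153%, 0.0705% and 0.0429% of all probe sets, with 0 at an unadjusted p under 0.05 in each. In muscle 0 of 8 passed, against 0.0184%, 0.0153% and 0.0337%, with 0, 4 and 1 at an unadjusted p under 0.05. In liver 0 of 8 passed, against 0%, 0% and 0.0153%, with 2, 0 and 1 at that level.

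The 4 genes in muscle on HFD were Fabp4 (0.44 ± 0.12), Cd36 (0.21 ± 0.07), Gpihbp1 (0.20 ± 0.09) and Lpl (0.18 ± 0.06), each higher in Ala/Ala, with limma adjusted p of 0.296, 0.464, 0.568 and 0.47. The Fabp4 arrays of Ala/Ala ran from -0.02 to 0.82 and those of Pro/Pro from -0.32 to 0.64, where the highest was Mouse131. With the adipocyte list mean as a covariate the 4 differences were 0.18 ± 0.11, 0.16 ± 0.08, 0.07 ± 0.10 and 0.09 ± 0.07. The genes of that list had a median difference of 0.81 in this comparison, with 5 of 6 higher in Ala/Ala and 0 passing. Adipocyte content and an effect of genotype therefore cannot be told apart in this fit. In fat on HFD the 95% intervals of the genotype difference were -0.03 to 0.18 for Cd36, -0.01 to 0.15 for Lpl, -0.19 to 0.12 for Fabp4 and -0.18 to 0.21 for Vldlr. For Slc27a2 in fat, from -2.16 to 0.85, the interval was far wider. Pparg itself on HFD differed by 0.03 ± 0.12 (fat), 0.31 ± 0.11 (muscle) and 0.22 ± 0.22 (liver), and did not pass (limma adjusted p = 0.96, 0.468 and 0.793). The interaction of diet and genotype passed for 0 of 8 genes in each tissue and for 0% of probe sets, and in muscle Fabp4 (0.52 ± 0.17) and Cd36 (0.24 ± 0.10) were the 2 genes at an unadjusted p under 0.05.

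**Figure D4:**
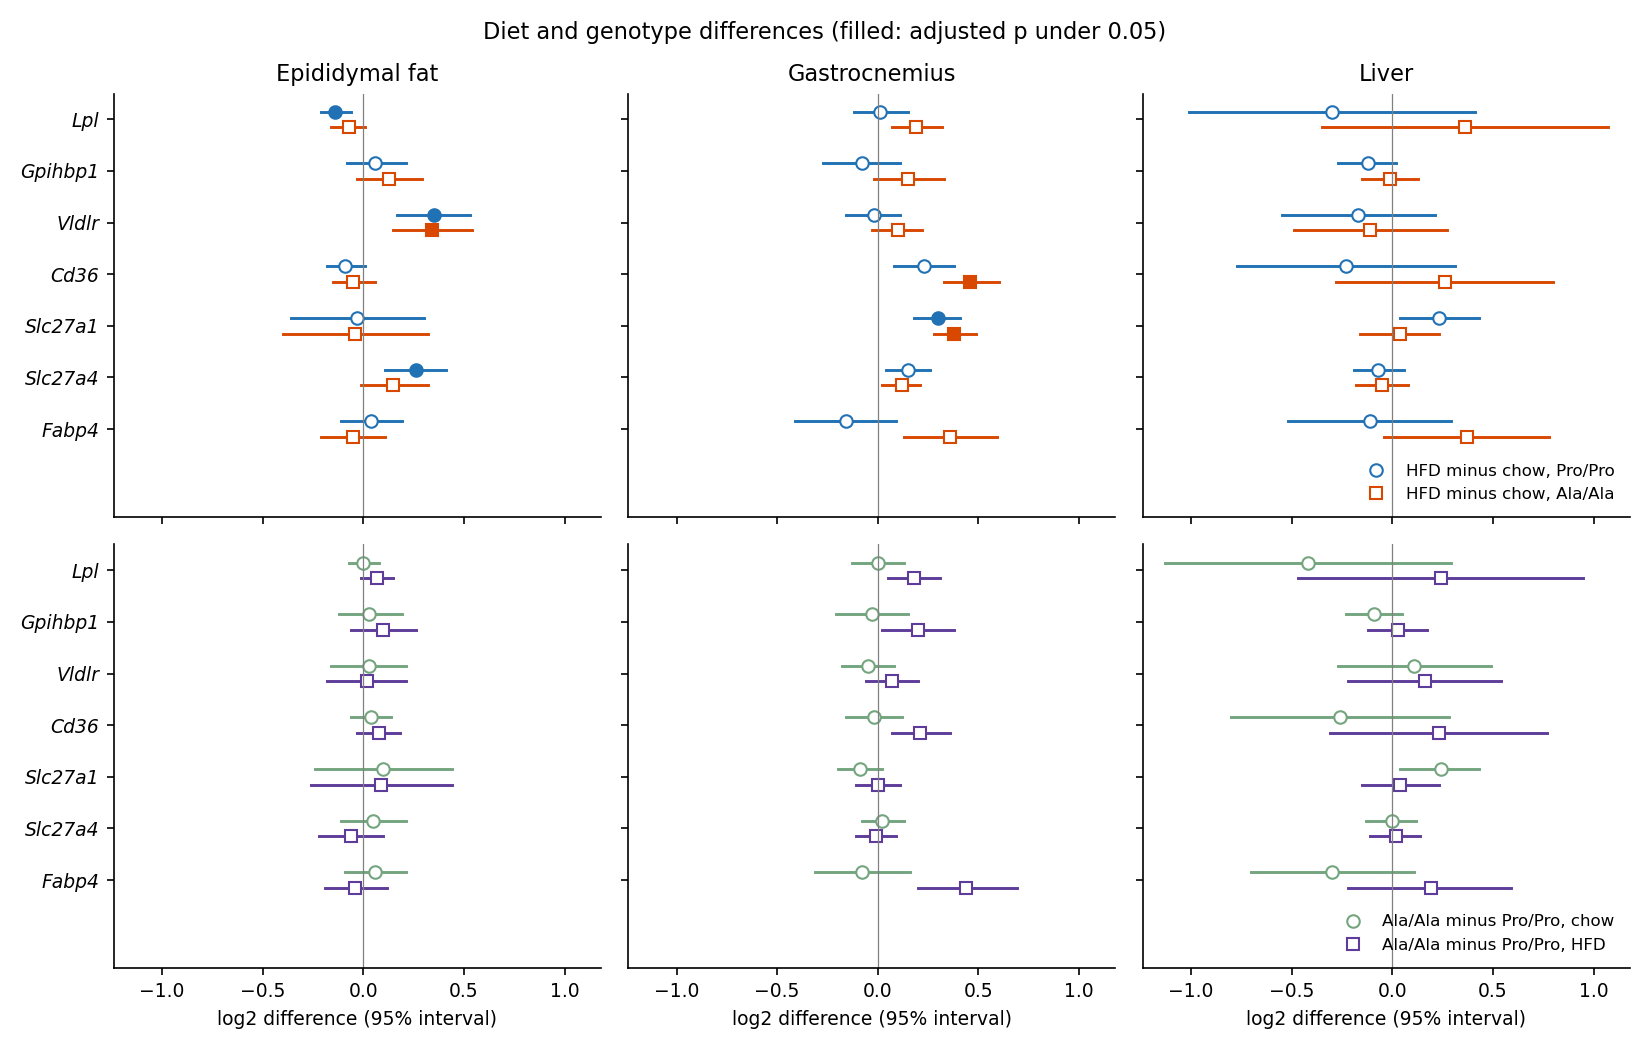
Fitted log2 differences with 95% intervals (horizontal axis) of 7 genes in fat, muscle and liver, with diet differences by genotype in the upper row and genotype differences by diet in the lower row; filled symbols passed the adjusted threshold, and Slc27a2 is left out because of its width in fat. Filled symbols are Lpl, Vldlr and Slc27a4 in fat and Cd36 and Slc27a1 in muscle, all in the upper row, and the widest intervals are those of Lpl and Cd36 in liver.

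In liver no gene passed with diet, in Pro/Pro, in Ala/Ala or over both genotypes. In limma 0 of 8 genes passed in each, against 0% of all probe sets, and 1, 0 and 0 genes had an unadjusted p under 0.05. The 1 gene was Slc27a1, which differed by 0.23 ± 0.10 in Pro/Pro (unadjusted p = 0.021, limma adjusted p = 0.847). The other Slc27a1 probe set differed by 0.00 ± 0.07 there. The genes fell into wide and narrow ones. Lpl ran from -1.52 to 1.94 and Cd36 from -1.29 to 1.15, and their SDs within groups, 0.84 and 0.64, were at percentiles 99.8 and 99.3 of all probe sets. Fabp4 (SD 0.48) and Vldlr (SD 0.45) were at percentiles 98.3 and 97.8. Slc27a2, which is typical of liver, ran only from -0.12 to 0.22, with an SD of 0.09 at percentile 1.1.

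Lpl in liver had medians of -0.19 in Pro/Pro on chow, -0.45 in Pro/Pro on HFD, -0.46 in Ala/Ala on chow and -0.25 in Ala/Ala on HFD, and each group spanned at least the range from -0.59 to 1.03. Its diet difference was -0.30 ± 0.35 in Pro/Pro and 0.36 ± 0.35 in Ala/Ala, with 95% intervals of -1.01 to 0.41 and -0.35 to 1.07. Cd36 had group medians between -0.06 and 0.08, and diet differences of -0.23 ± 0.27 and 0.26 ± 0.27. Fabp4 in liver differed by 0.37 ± 0.20 in Ala/Ala (95% interval -0.04 to 0.78), Vldlr by -0.17 ± 0.19 and -0.11 ± 0.19, and Slc27a4 by -0.07 ± 0.06 and -0.05 ± 0.06. For the other Vldlr probe sets the Pro/Pro differences were -0.04 and -0.23; those of Ala/Ala were -0.13 and, with the opposite sign, 0.19 ± 0.12. The narrow intervals of Slc27a2, -0.06 to 0.12 in Pro/Pro and -0.14 to 0.04 in Ala/Ala, bound its difference most closely. The livers of Mouse141 (Pro/Pro on chow) and Mouse109 (Ala/Ala on chow) were the highest of their groups for Cd36 (1.05 and 1.15), Lpl (1.10 and 1.03) and Vldlr (1.21 and 1.62). The hepatocyte list mean stayed between -0.07 and 0.06 on all 40 liver arrays, the adipocyte list mean between -0.34 and 0.27 and the endothelial list mean between -0.20 and 0.27. The macrophage list mean ran more widely, from -0.44 to 0.56. After group means were subtracted it correlated with Fabp4 (r = 0.721), Lpl (0.596), Cd36 (0.177), Vldlr (-0.234) and Slc27a1 (-0.714). The part of these cell types in the spread of the genes was not tested.

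**Figure D5:**
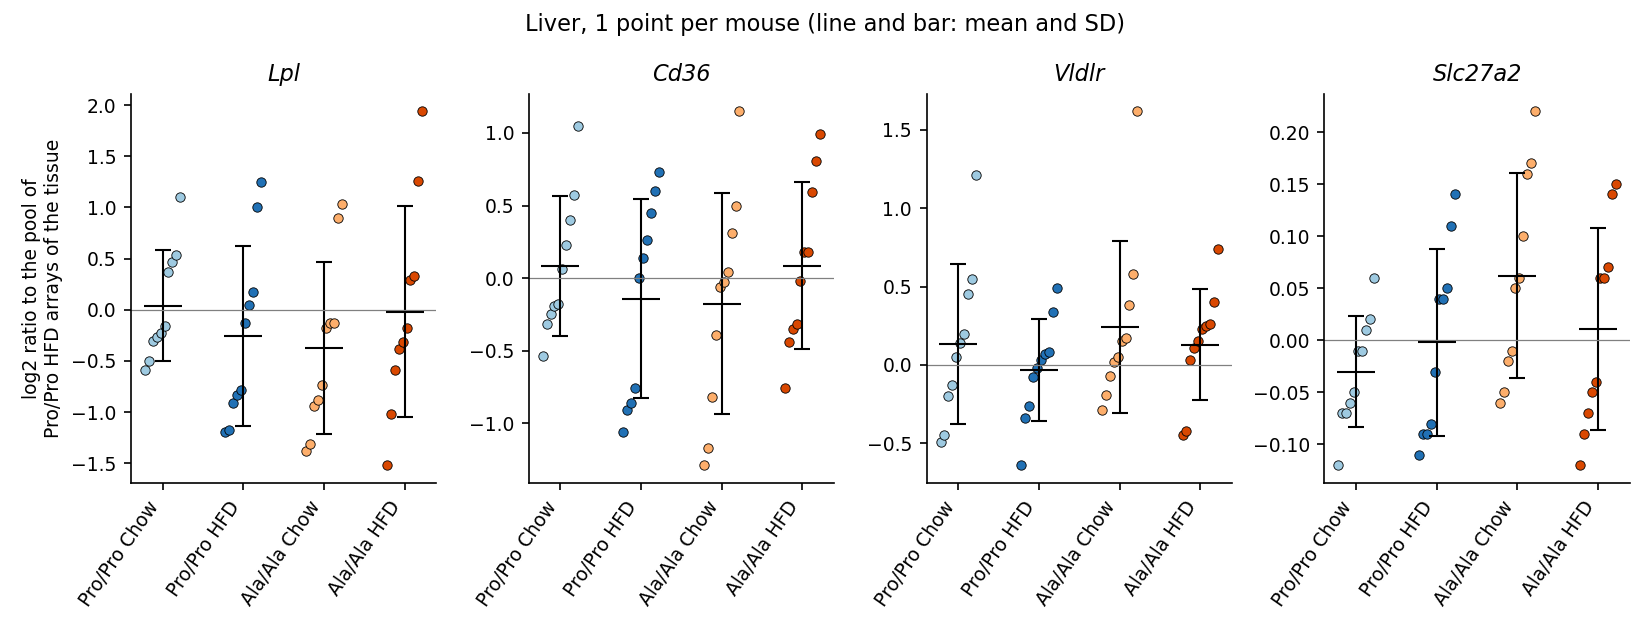
Log2 ratio to the pool (vertical axis, a different scale in each panel) of Lpl, Cd36, Vldlr and Slc27a2 in liver, 1 point per mouse in the 4 groups of 10; the line and bar are the mean and SD. The groups overlap for each gene, with Lpl spread from -1.52 to 1.94 and Slc27a2 from -0.12 to 0.22.

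The effect of HFD, averaged over genotypes, was then compared between tissues. The diet effect was higher in fat than in liver, where it was -0.14 ± 0.13 and -0.06 ± 0.04 and did not pass, for Vldlr (by 0.49 ± 0.14, limma adjusted p = 0.00348) and Slc27a4 (by 0.26 ± 0.06, limma adjusted p = 0.000642), 2 of 8 genes against 26.6% of probe sets. Between fat and muscle Slc27a1 passed, as 1 of 8 genes against 25.1%: its diet effect was lower in fat by 0.37 ± 0.12 (-0.37, limma adjusted p = 0.016). Of the 15 probe sets only 1 passed as lower there, so the other Slc27a1 probe set did not. Between muscle and liver 0 of 8 passed in limma, against 0.824%, with 1 at an unadjusted p under 0.05 (Slc27a4, 0.19 ± 0.06). After quantile normalization the difference of Slc27a1 between fat and muscle was -0.25 and did not pass (limma adjusted p = 0.252).

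The fit over all 12 groups uses 1 error per gene, which covers the liver arrays as well. For Cd36 the diet effect in fat was below that in muscle by 0.41 ± 0.18 (-0.41, limma adjusted p = 0.0903), and for Vldlr it was above by 0.31 ± 0.14 (0.0955). Fitted on the arrays of fat and muscle only, an alternative chosen after seeing the data, the differences had the same size, with smaller errors for Cd36, Lpl and Vldlr and a slightly larger one for Slc27a1: Cd36 -0.41 ± 0.06 (limma adjusted p = 1.51e-07), Lpl -0.21 ± 0.05 (0.000978), Vldlr 0.31 ± 0.08 (0.00212) and Slc27a1 -0.37 ± 0.13 (0.0258), so that 4 of 8 genes passed. The share of all probe sets that passed in that fit is not given here. Vldlr also passed in the comparison of fat and muscle without Mouse109 (0.32, limma adjusted p = 0.0482).

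Among themselves the genes varied in small groups that differed by tissue. Over the 28 pairs of the 8 genes, correlations after subtracting group means had medians of 0.169 (fat), 0.153 (muscle) and 0.096 (liver). The highest in fat was Cd36 with Lpl (r = 0.611, 37 arrays). In muscle Cd36 varied with Fabp4 (0.632), Lpl (0.616) and Gpihbp1 (0.56), and Gpihbp1 with Lpl (0.617, 35 arrays). In liver Cd36 varied with Vldlr (0.554) and Fabp4 with Lpl (0.531), while Fabp4 ran opposite to Slc27a1 (-0.619) and Slc27a4 (-0.584, 40 arrays). The arrays of a tissue share 1 pool, and no test is attached to these values.

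Other genes with the most similar pattern over the same arrays were then listed. In fat they were Aadac (r = 0.971) and Fbp1 (0.967) for Slc27a2, Serinc1 (0.841) for Cd36, Mvd (0.828), a cholesterol synthesis enzyme, for Slc27a4, and Slc25a40 (0.792) for Lpl. In muscle Slc27a2 was nearest to the plasma protein genes Apoh (0.947) and Plg (0.938), Gpihbp1 to Kank3 (0.849) and the endothelial VEGF receptor Flt1 (0.819), Cd36 to Hsdl2 (0.815) and Lpl to Ggta1 (0.735). In liver Fabp4 was nearest to Ctla2a (0.896), the intermediate filament gene Vim (0.874) and the pericyte receptor Pdgfrb (0.872), Gpihbp1 to Fbh1 (0.842), Lpl to Cdc42ep5 (0.838) and Vldlr to Slc16a7 (0.828). Gpihbp1 in liver also followed the endothelial list mean (r = 0.76).

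The rest of the uptake pathway was read from 6 lists with 52 measured genes. In fat 10 of the 52 passed with HFD in Pro/Pro (7 higher, 3 lower) and 15 in Ala/Ala (8 higher, 7 lower), against 22.5% and 26.9% of all probe sets, so that the lists stood near the whole array. Among 10 genes that control lipoprotein lipase, 3 were called higher in Pro/Pro and 4 in Ala/Ala, against 9.36% and 12.3% of all probe sets called higher: the lipase inhibitor Angptl4 by 0.25 ± 0.05 and 0.26 ± 0.05, the lipase activator Apoc2 by 0.82 ± 0.18 and 0.82 ± 0.19, Apoc1 by 0.46 ± 0.10 and 0.37 ± 0.11, and in Ala/Ala Sel1l, which aids the exit of the lipase from the endoplasmic reticulum, by 0.31 ± 0.10. Of 9 acyl-CoA synthetases Acsl4 (0.58 and 0.66) and Acsl3 (0.38 and 0.54) rose in both genotypes, and Acsm3 fell (-1.29 and -1.04). Of 7 other lipases and lipoprotein receptors Scarb1, the receptor of high density lipoprotein, rose in Pro/Pro (0.28) and Lrp1 fell in Ala/Ala (-0.45). Of 12 other transport and binding proteins the acyl-CoA binding protein Dbi rose in both (0.13 and 0.13), Slc27a3 rose in Ala/Ala (0.24) and Got2, the mitochondrial aspartate aminotransferase, fell there (-0.21). Among 8 nuclear receptors and coactivators Ppargc1b fell in both (-0.66 and -0.79), and Ppargc1a (-0.46) and Rxrg (-0.26) fell in Ala/Ala. Among the 6 genes of VEGF signalling Flt1 fell in Pro/Pro (-0.23) and Nrp1, a VEGF co-receptor, in Ala/Ala (-0.41).

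In muscle 2 of the 52 passed in Pro/Pro and 3 in Ala/Ala, all higher, against 0.414% and 1.02% of all probe sets called higher (0.956% and 1.95% in either direction). Dbi rose in both, by 0.46 ± 0.07 and 0.61 ± 0.06 (limma adjusted p = 7.42e-05 and 1.98e-08), Vegfa, the angiogenic factor, in Pro/Pro by 0.37 ± 0.09, and in Ala/Ala Acsl1, the main acyl-CoA synthetase of muscle, by 0.51 ± 0.08 and the caveolar coat gene Cav1 by 0.21 ± 0.05. Of 8 endothelial genes Emcn rose in Ala/Ala (0.35 ± 0.07). With the endothelial list mean as a covariate, an alternative added after seeing the data, Cd36 rose by 0.42 ± 0.07 and Slc27a1 by 0.34 ± 0.06 in Ala/Ala. In liver 0 of the 52 passed in limma in either genotype. The rise of Dbi with HFD was larger in muscle than in fat (fat minus muscle -0.41 ± 0.04, limma adjusted p = 2.2e-13), and those of Apoc2 (0.53 ± 0.17) and Acsl4 (0.52 ± 0.17) were larger in fat (limma adjusted p = 0.0145 and 0.0189).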

How the data were processed

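The 112 arrays are 37 of fat, 35 of muscle and 40 of liver from 41 mice. The authors processed them with Rosetta Resolver and deposited log10 ratios to the virtual pool, per the labels; an Affymetrix mouse array is named. Depth and background are unknown, and the muscle pool check held for 10.54% of probe sets. Ratios were turned to log2. Symbols came from the platform annotation (25508 probe sets with 1 symbol, 0 with several, 7132 with none), updated with an NCBI table of GRCm38.p6.

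Group means were fitted per tissue with limma 3.58.1 (R 4.3.3) over 32640 probe sets, with Benjamini-Hochberg adjustment; tissue differences used all 12 groups. The fit was tested on simulated data. All 8 measured genes are named; pathway genes are named up to 4 per role and tissue by p, and similar genes by correlation. The genes, lists and tests were chosen with earlier results of these data known. Mouse numbers mark the same animal per the titles. Deviations from group means of same-numbered arrays correlated with medians of 0.0108 (fat and muscle), -0.0159 (fat and liver) and -0.00947 (muscle and liver).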

Additional observations from a re-analysis of the deposited data

Results flagged for a closer look

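Among 96 combinations of gene and group 5 held an array far from the others of its group by Dixon's test, which chance does in about 1 in 20. Vldlr in fat stood at 0.15 in Mouse84 (Pro/Pro on chow), with the next array at -0.30. Vldlr in liver stood at 1.62 in Mouse109 (Ala/Ala on chow), with the next at 0.58. Fabp4 in muscle stood at 0.64 in Mouse131 (Pro/Pro on HFD), with the next at 0.13. Slc27a2 in fat stood at -2.89 in Mouse131, with the next at -0.83. Slc27a4 in fat stood at -0.55 in Mouse113 (Ala/Ala on chow), with the next at -0.30.

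The effect of HFD differed between tissues by limma's test of the difference for 3 combinations. For Slc27a1 it was -0.37 in fat minus muscle (its other probe set did not pass), and in fat minus liver it was 0.49 for Vldlr and 0.26 for Slc27a4.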

How the results depend on the processing

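Counts of passing genes lay within 1.5 times the reported count in 211 of 223 alternatives and in 906 of 907 omissions of 1 mouse. Gene values kept sign and call in 208 of 218 alternatives and 953 of 956 omissions, and 0 of 1174 changed sign. The methods' t-test called 0 of 8 genes in each comparison of genotypes, after Benjamini-Hochberg adjustment at 0.05 and at 0.20. At an adjusted p of 0.20, the authors' threshold, 3 genes passed for HFD in fat of Ala/Ala and 5 over both genotypes, 3 in muscle of Pro/Pro and 4 of Ala/Ala, 3 for fat against muscle and 1 for muscle against liver. Shares of all probe sets at that threshold or in the alternatives below are not given here. Without the 10 fat arrays with transcripts of other organs, 0 passed for HFD in Ala/Ala fat, where 8 chow and 5 HFD arrays were left. For fat against muscle 0 passed after quantile normalization, 2 with averaged probe sets, 2 with array weights, and 4 with only the arrays of both tissues (added after seeing the data); omissions gave 1 to 2, with 2 without Mouse109. For fat against liver 1 passed among probe sets above the median variance. The causes were not tested, except that fewer arrays or probe sets enter by construction. With mouse number as a replicate block (within-mouse correlation -0.00688) 1, 2 and 0 genes passed for fat against muscle, fat against liver and muscle against liver, and no call changed. HFD over both genotypes and the slow fibre and endothelial covariates were also added after seeing the data. A gene whose reported probe set lay below the median variance has no value in that alternative.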
